A study of Arabidopsis thaliana and Boechera depauperata with 12 samples.

Results

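The nuclear genes of *A. thaliana* were compared between plants under basal heat stress (B/HS, 38 °C) and control plants kept at 22 °C. Every gene with an identifier from AT1G to AT5G was taken, which gave 32548 nuclear genes of the 33977 genes with counts. Of these, 8826 had 0 counts in all 4 libraries and 17405 passed the filter on low counts (edgeR's filterByExpr) and were tested. In total 12302 genes were well counted, meaning at least 20 counts in each of the 4 libraries, and the genes given with their levels below come from these unless stated otherwise.

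RNA-seq libraries W1 and W2 came from control plants and W3 and W4 from plants moved directly from 22 °C to 38 °C for 3 h. Each group had 2 libraries, which the Methods describe as biological replicates prepared independently from germination onwards. The labels give the tissue as root, no genotype other than the species and no plant age. They name the Nextera XT library kit, which does not mark strand, while the Methods name TruSeq.

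Heat unfolds proteins, and cells answer by making chaperones. Heat shock transcription factors (HSFs) bind heat shock elements, repeats of GAA and its reverse complement TTC upstream of heat shock protein (HSP) genes. Small HSPs hold unfolding proteins, HSP70 and HSP90 refold them with ATP, and HSP101 pulls proteins out of aggregates. Heat is also known to lower the expression of growth and defence genes in plants.

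The 4 libraries held between 11843553 and 14187398 counts, of which 22.3 to 39.0 % fell on nuclear genes (2877735 to 4988222 counts). Expression levels are given as CPM, which are counts scaled to a common library total after scaling each library with a TMM factor, and a count of 0 allows a level of up to 0.28 CPM in the shallowest library (from 3 counts, counting error only). To see whether a library had been deposited more than once, the counts of each pair were compared by chi-square. Divided by its degrees of freedom it was 35.0 for W1 against W2 and 8.44 for W3 against W4, so neither pair was a duplicate, and all 4 were kept as separate samples.

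The tissue label was checked against marker genes. Of 20 root markers, 10 had at most 3 counts in each library, *IRT1* (an iron transporter of the root surface) had 0 in all 4, and 4 were tested. Their summed level was 216 and 243 CPM in control and 60.2 and 67.0 CPM in B/HS. Of 15 leaf markers, 14 were tested, and their summed level was 8190 and 6766 CPM in control and 7584 and 6850 CPM in B/HS. Root markers were thus at or near 0 in 10 of 20 cases while leaf genes were abundant, against the label, so the tissue is not named in what follows. The part of the lower root markers in the results was not tested. In whole tissue, fewer cells of a type and less RNA per cell cannot be told apart.

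A further property of the control libraries bears on the size of every large rise. Among the 511 nuclear genes with a mean B/HS level of at least 100 CPM, the lowest control level was 3.51 % of the B/HS level in W1 and 7.52 % in W2, both in *HSP17.4*. The second lowest was 4.095 % in W1 and 8.70 % in W2. For the 23 genes at 1000 CPM or more with a log2 fold change of at least 3.5, the control level was 3.51 to 5.72 % of the B/HS level in W1 (median 4.57 %) and 7.52 to 10.7 % in W2 (median 9.72 %). The choice by fold change limits these ranges from above. For the 33 genes at that level with a log2 fold change of at least 2, they were 3.51 to 24.2 % in W1 and 7.52 to 23.7 % in W2. Among the 23 genes the median ratio was higher in W2 than in W1. What sets these ratios was not tested. Whether reads from heat-stressed libraries were carried over into the control libraries, in which case the control levels printed for these genes would be too high and their fold changes too small, was not tested either. The fold changes of these genes lie close together and depend on which control library is used, so the value without W2 is given beside the first of them.

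**Figure D1:**
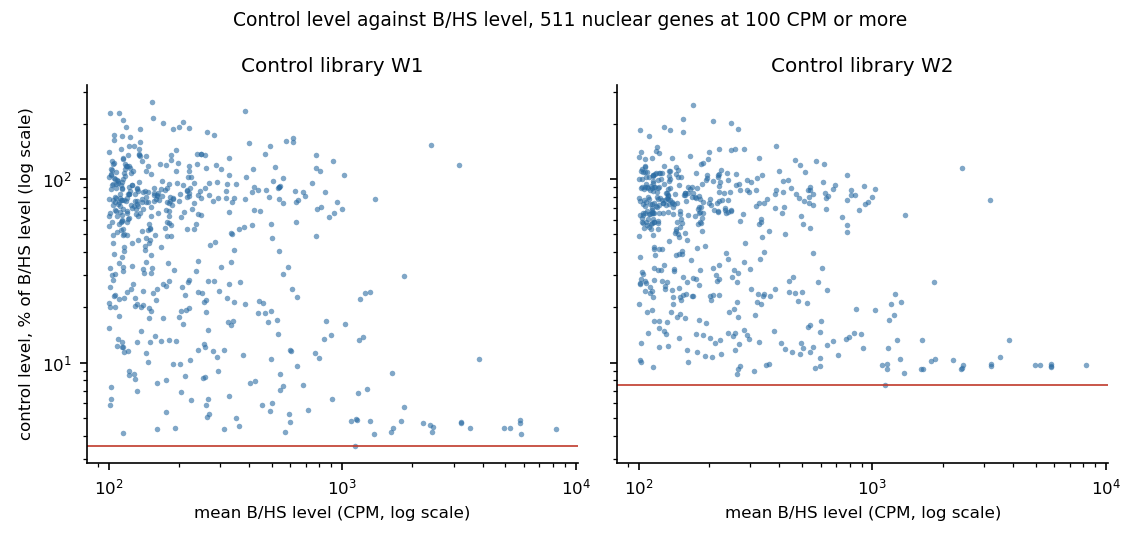
Each point is 1 of 511 nuclear genes with a mean B/HS level (x axis, CPM, log scale) of at least 100 CPM, and the y axis gives its level in control library W1 or W2 as a percentage of that B/HS level (log scale). The red lines mark the lowest values, 3.51 % in W1 and 7.52 % in W2, and the most abundant induced genes lie just above them.

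At an adjusted *P*-value under 0.05 (edgeR's quasi-likelihood test, Benjamini–Hochberg adjustment over all genes), 3468 nuclear genes rose (19.9 % of those tested) and 3424 fell (19.7 %), together 6892 or 39.6 %. With a change of at least 4-fold as well, the thresholds of the Methods, 647 genes rose (3.72 %) and 852 fell (4.9 %), together 1499 or 8.61 %. Among well counted genes 397 rose and 125 fell by at least 4-fold, but a minimum in every library leaves out genes that fell to few counts, so this split says nothing about the balance of rises and falls. Protein-coding genes made up 627 of the 647 and 840 of the 852. The median log2 fold change over all genes tested was −0.02. Counts of list members called higher or lower below are to be read against the shares of 19.9 and 19.7 %. With 2 libraries a group, the smallest two-sided *P*-value of an exact permutation test is 0.333. The calls rest on the spread that edgeR estimated across all genes. Most genes given below with their levels were picked as large changes among called genes. Where their control and B/HS libraries do not overlap, that separation adds no support.

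Genes that rose at least 4-fold took 4.15 and 6.52 % of nuclear counts in W1 and W2, and 34.4 and 30.6 % in W3 and W4. The 60 genes of 4 chaperone lists (small HSPs, HSP70 and HSP110, HSP90 and HSP100, co-chaperones) accounted for 2.32 and 3.83 % of nuclear counts in control and 22.4 and 20 % in B/HS. Genes that fell at least 4-fold took 2.75 and 2.60 % in control and 0.258 and 0.344 % in B/HS. Shares also depend on what other genes do. The Calvin cycle list went from 4.67 and 3.87 % of nuclear counts to 2.65 and 2.62 %, with a median log2 fold change of −0.10 on the scaled CPM levels.

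**Figure D2:**
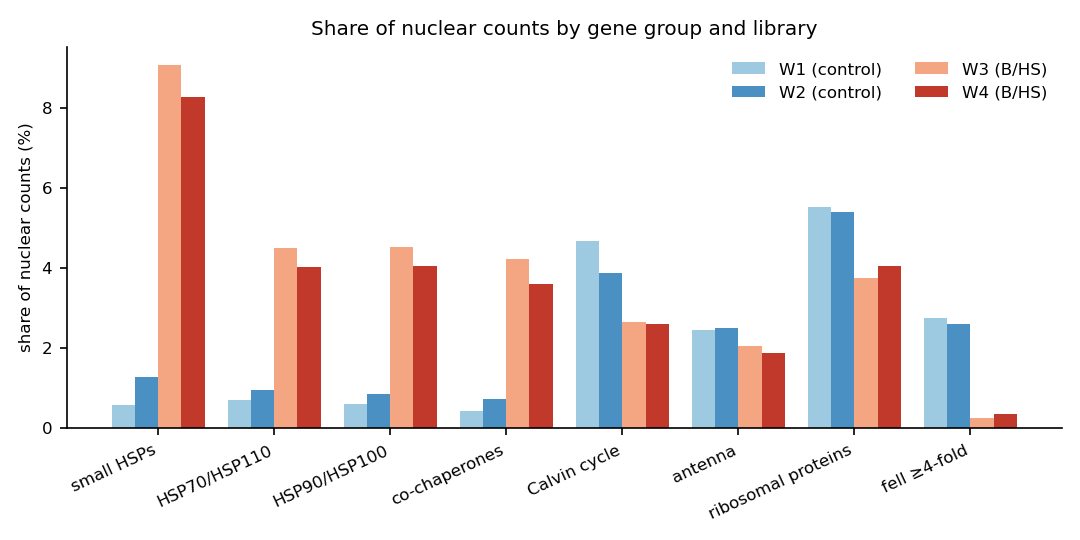
Bars give the share of nuclear counts (%) that each gene group took in control libraries W1 and W2 (blue) and B/HS libraries W3 and W4 (red). Small HSPs went from 0.573 and 1.28 % to 9.08 and 8.29 %, and genes that fell at least 4-fold from 2.75 and 2.60 % to 0.258 and 0.344 %.

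Small HSPs were the most strongly induced list. Of 17 members, all tested, 15 rose at an adjusted *P*-value under 0.05, against 19.9 % of all genes, and none fell. Each of the 15 rose at least 4-fold, against 3.72 % of all genes. The median log2 fold change of the list was 3.83. Among 26 tested genes with the annotated product HSP20-like chaperones superfamily protein, 13 rose and 1 fell (median 0.72). That set overlaps the list only in part. The HSP20-like gene AT4G21870 did not pass, at 13.2 and 12.6 CPM in control and 12.8 and 14.4 CPM in B/HS (adjusted *P* = 0.763, edgeR). The other member that did not pass was AT5G47600, at 2.80 and 1.59 CPM in control and 3.46 and 3.79 CPM in B/HS (adjusted *P* = 0.0991, edgeR).

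The largest rise of any well counted gene was that of *HSP17.4* (AT3G46230, TAIR10.1 chr3:16984118-16984867), which encodes a cytosolic class I small HSP. Its level was 39.8 and 85.2 CPM in W1 and W2 and 1296 and 972 CPM in W3 and W4. Both B/HS values lay far above both control values, and W2 was higher than W1. The log2 fold change was 4.18 (SE 0.40, adjusted *P* = 5.97e-06, edgeR), and 4.79 without W2 and 3.75 without W1. This gene overlaps AT3G46220 and AT3G07365 in the annotation, so some of its reads could belong to them.

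*ATHSP22.0* (AT4G10250), a small HSP of the endoplasmic reticulum (ER), had 56.1 and 121 CPM in control and 1396 and 1343 CPM in B/HS. *HSP21* (AT4G27670), the small HSP of the chloroplast, had 67.8 and 150 CPM in control and 1684 and 1556 CPM in B/HS. *HSP23.6-MITO* (AT4G25200), which is imported into mitochondria, had 109 and 238 CPM in control and 2765 and 2122 CPM in B/HS. All 3 organellar genes rose. Their log2 fold changes were 3.95 (SE 0.36, adjusted *P* = 5.19e-06), 3.89 (SE 0.37, adjusted *P* = 6.37e-06) and 3.81 (SE 0.39, adjusted *P* = 9.58e-06, all edgeR). The cytosolic class I gene *HSP18.2* (AT5G59720) had 239 and 549 CPM in control and 5938 and 5691 CPM in B/HS (log2 fold change 3.88, SE 0.44). The class II gene *HSP17.6A* (AT5G12030) had 102 and 228 CPM in control and 2640 and 2216 CPM in B/HS (3.88, SE 0.41). These fold changes lay within 1 SE of those of the organellar genes.

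Of the 12 genes with the largest rises, 10 were small HSPs, among them the HSP20-like genes AT1G52560, AT1G59860, AT2G29500, AT5G51440 and AT1G07400, with log2 fold changes of 3.83 to 3.88. Neither of the other two is a chaperone by its annotation. AT5G25450 is annotated as a 14 kDa subunit of cytochrome bd ubiquinol oxidase. It had 13.5 and 28.1 CPM in control and 354 and 269 CPM in B/HS (log2 fold change 3.89, SE 0.35, adjusted *P* = 4.62e-06, edgeR), and it overlaps AT5G03975 and AT5G25451. AT1G72660, annotated as a P-loop nucleoside triphosphate hydrolase, had 4.76 and 10.8 CPM in control and 128 and 102 CPM in B/HS (3.85, SE 0.32, adjusted *P* = 2.92e-06, edgeR). It overlaps AT1G72670.

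**Figure D3:**
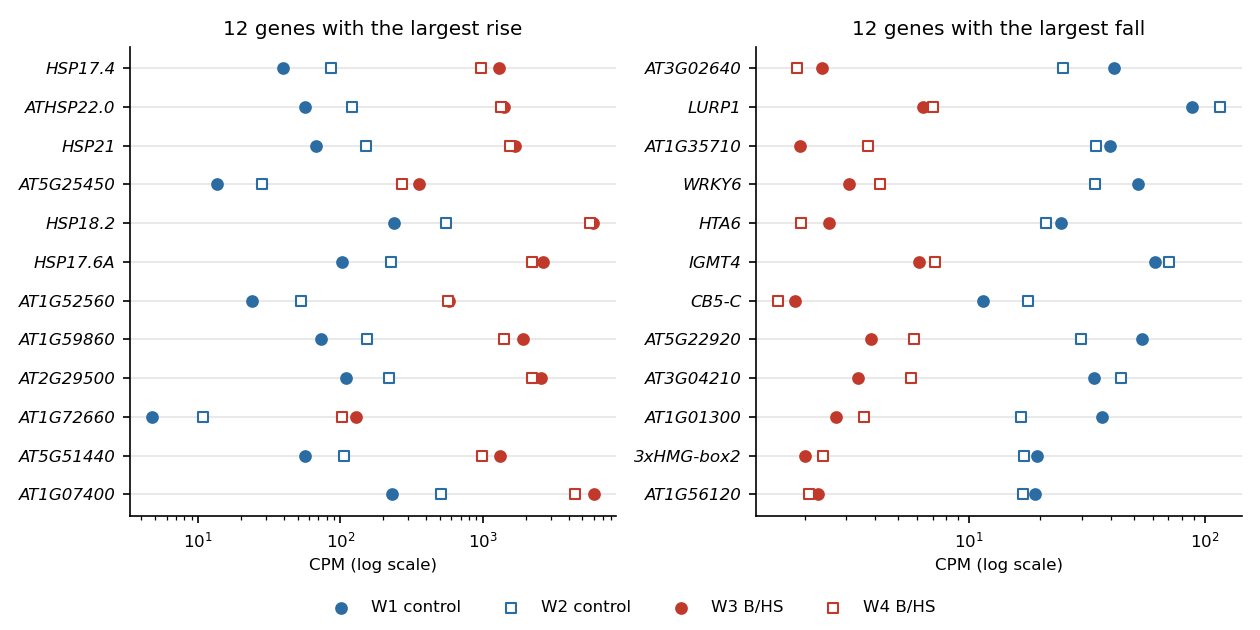
Levels (CPM, log scale) of the 12 well counted genes with the largest rise (left) and the largest fall (right) in control libraries W1 and W2 (blue) and B/HS libraries W3 and W4 (red). No gene overlaps between groups, but the genes were chosen for the largest changes among called genes. W1 lies below W2 for each of the 12 risen genes.

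The levels reached in B/HS were compared per kb of exon, since longer genes collect more reads. The largest gain in level was that of AT1G07400, a small HSP, from 268 and 590 to 7002 and 5178 CPM per kb. *HSP18.2* went from 244 and 561 to 6072 and 5819 CPM per kb, and AT1G53540, another HSP20-like gene, from 242 and 535 to 6085 and 4899 CPM per kb. *HSP17.6II* (AT5G12020), of class II, went from 176 and 429 to 4249 and 3769 CPM per kb. Outside the small HSPs, only 2 genes stood among the 8 largest gains. ROF2 (AT5G48570), a peptidyl-prolyl isomerase that binds HSP90, went from 162 and 363 to 4135 and 3306 CPM per kb, and *HSP90.1* from 134 and 271 to 3021 and 2487 CPM per kb. The B/HS levels of AT1G07400, *HSP18.2* and AT1G53540 overlapped, so their order was within the spread between W3 and W4.

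The HSP70 and HSP110 list had 16 members, all tested. All 16 rose, 10 of them at least 4-fold, with a median log2 fold change of 2.48. Without W1 or without W4, 15 of the 16 were called. *Hsp70b* (AT1G16030), a cytosolic HSP70, had 273 and 556 CPM in control and 6433 and 5174 CPM in B/HS (log2 fold change 3.81, SE 0.42, adjusted *P* = 1.52e-05, edgeR). *HSP70* (AT3G12580), also cytosolic, had 150 and 309 CPM in control and 3527 and 2927 CPM in B/HS (3.81, SE 0.38). These values do not overlap between groups. The mitochondrial *MTHSC70-2* (AT5G09590) had 57.7 and 109 CPM in control and 1047 and 767 CPM in B/HS (3.44, SE 0.33). The chloroplast members rose less, with log2 fold changes of 1.99 and 1.69 for *HSP70-6* and *HSP70-7* of the list. *BIP1* and *BIP2*, which encode the HSP70 of the ER, had log2 fold changes of 2.64 and 2.71 and are near-identical copies whose reads may not be told apart. The third ER member, *BIP3*, had 8.02 and 15.8 CPM in control and 19.6 and 24.7 CPM in B/HS (0.87, adjusted *P* = 0.0211, edgeR), the smallest rise of the list.

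All 11 members of the HSP90 and HSP100 list rose, 9 of them at least 4-fold, with a median log2 fold change of 3.08. *HSP90.1* (AT5G52640), the heat-inducible cytosolic HSP90, had 281 and 571 CPM in control and 6353 and 5231 CPM in B/HS (3.77, SE 0.41, adjusted *P* = 1.38e-05, edgeR). *HSP101* (AT1G74310), the cytosolic disaggregase required for thermotolerance, had 154 and 317 CPM in control and 3636 and 2828 CPM in B/HS (3.78, SE 0.39, adjusted *P* = 9.58e-06, edgeR). Its chloroplast relative *CLPB3* (AT5G15450) had 80.2 and 141 CPM in control and 1250 and 1084 CPM in B/HS (3.40, SE 0.33). The mitochondrial *CLPB4* (AT2G25140) was the least abundant, at 12.4 and 18.9 CPM in control and 180 and 142 CPM in B/HS (3.35, SE 0.25). Disaggregases of all 3 compartments were thus called higher in B/HS.

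Co-chaperones were divided. Of 16 members 11 rose, 9 of them at least 4-fold, and 1 fell, with a median of 2.15. *Hop3* (AT4G12400), which links HSP70 to HSP90, had 104 and 227 CPM in control and 2512 and 1910 CPM in B/HS (3.74, SE 0.40), while *HOP1* of the same family had a log2 fold change of 0.41 and did not pass (adjusted *P* = 0.119, edgeR). *BAG6* (AT2G46240), a binding partner of HSP70, had 57.0 and 113 CPM in control and 1275 and 1029 CPM in B/HS (3.76, SE 0.35). Its family member *BAG7* (AT5G62390), which resides in the ER, was the one that fell, from 85.1 and 69.5 CPM to 39.9 and 42.8 CPM (−0.90, SE 0.20, adjusted *P* = 0.00322, edgeR). It was not called without W3 (adjusted *P* = 0.0559, edgeR). *Fes1A* (AT3G09350), an HSP70-binding protein, had 39.6 and 78.7 CPM in control and 819 and 607 CPM in B/HS (3.59, SE 0.35). Members of the HOP and BAG families therefore differed within each family.

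The upstream regions of the induced genes were searched on both strands for a 13-letter heat shock element (GAA, any 2 bases, TTC, any 2 bases, GAA) in a window from 250 bases before to 50 bases after the annotated start. It was present in 30 of 647 genes that rose at least 4-fold (4.64 %), in 0 of 852 that fell and in 97 of 17404 promoters of tested genes (0.557 %). The shorter core TTCNNGAA, which the 13 letters contain, was in 18.9 % of risen, 7.63 % of fallen and 9.17 % of all promoters. The other core, GAANNTTC, was in 19.5, 12.9 and 11.4 %. The G-box (CACGTG), bound by bZIP and bHLH factors, was in 14.5, 5.05 and 9.01 %, and the evening element (AAATATCT), bound by clock MYB factors, in 8.19, 6.57 and 6.05 %. Site II (GGCCCA), a target of TCP factors, was in 23.2 % of risen and 9.27 % of fallen promoters against 19.9 % of all. Of the 17 small HSP promoters, 2 held the 13 letters and 12 held site II. A match is a string of letters in this window and not a measured binding site.

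**Figure D4:**
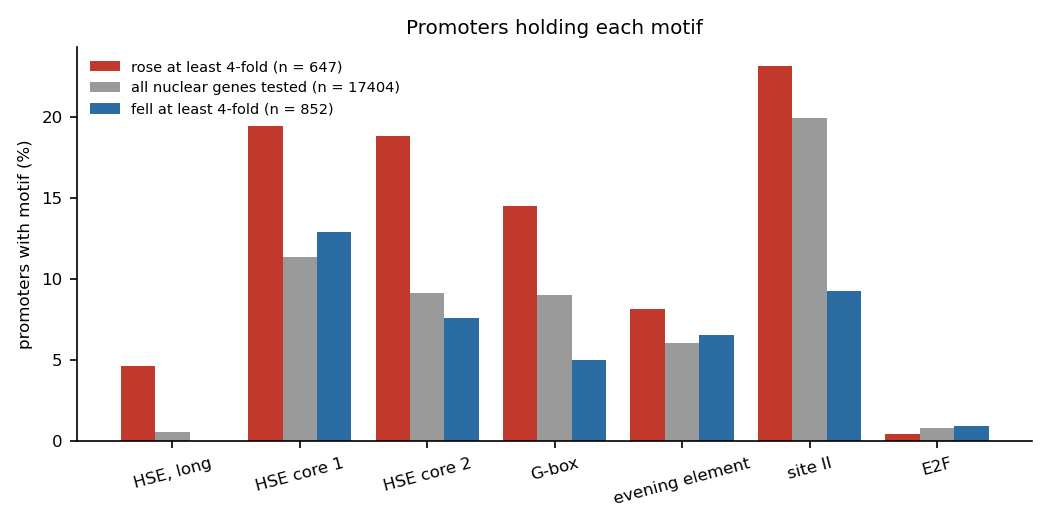
Bars give the share of promoters (%) that hold each motif among 647 genes that rose at least 4-fold (red), 17404 genes tested (grey) and 852 genes that fell at least 4-fold (blue). The long heat shock element (HSE, 13 letters) was in 4.64 % of risen and 0 of the fallen promoters, and the cores 1 and 2 are its first and last 8 letters.

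Upstream regions are shown for 3 risen genes of different roles whose 250 bases before the start hold the 13-letter element and overlap no other gene: a chaperone (*HSP17.4*), an enzyme (*GolS1*) and a transcription factor (*DREB2A*). The sequences are those of RefSeq, assembly TAIR10.1, read 5′ to 3′ on the strand of the gene and ending at the base before its annotated start. Capitals mark the element in either orientation. In *HSP17.4* (chr3:16984868-16985117, minus strand) the 2 matches begin 99 and 18 bases before the start, in *GolS1* (chr2:19370479-19370728, minus strand) the match begins 100 bases before it, and in *DREB2A* (chr5:1601955-1602204, plus strand) 164 bases before it.
HSP17.4: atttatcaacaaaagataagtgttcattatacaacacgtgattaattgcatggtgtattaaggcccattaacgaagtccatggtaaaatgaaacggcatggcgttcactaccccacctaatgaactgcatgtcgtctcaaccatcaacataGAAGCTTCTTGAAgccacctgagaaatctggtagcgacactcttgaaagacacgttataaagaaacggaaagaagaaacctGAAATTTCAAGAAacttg
GolS1: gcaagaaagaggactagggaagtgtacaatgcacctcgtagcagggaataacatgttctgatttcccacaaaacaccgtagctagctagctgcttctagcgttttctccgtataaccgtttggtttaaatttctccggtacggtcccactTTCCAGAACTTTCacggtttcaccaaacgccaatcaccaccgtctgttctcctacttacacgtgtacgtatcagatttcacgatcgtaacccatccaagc
DREB2A: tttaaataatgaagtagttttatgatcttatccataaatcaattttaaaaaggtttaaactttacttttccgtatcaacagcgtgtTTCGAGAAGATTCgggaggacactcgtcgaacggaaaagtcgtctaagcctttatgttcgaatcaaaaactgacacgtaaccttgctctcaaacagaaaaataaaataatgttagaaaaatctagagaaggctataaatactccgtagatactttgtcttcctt

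Of 21 HSF genes 16 were tested, 10 rose, 8 of them at least 4-fold, and 1 fell, with a median log2 fold change of 1.84. The 5 that were not tested had at most 4 counts in any library. *HSFA2* (AT2G26150), which sustains the heat response, had 63.2 and 137 CPM in control and 1559 and 1062 CPM in B/HS (log2 fold change 3.71, SE 0.42, adjusted *P* = 2e-05, edgeR). *HSFA3* (AT5G03720), a target of DREB2A, had 4.199 and 4.94 CPM in control and 46.8 and 34.1 CPM in B/HS (3.13, SE 0.23). Of the class B factors, which lack an activation domain, 3 rose (*HSFB1*, *HSFB2A* and *HSFB2B*), while *HSFB4* did not pass (−0.23, adjusted *P* = 0.591, edgeR) and *HSFB3* was not tested. *HSFB1* (AT4G36990) had 21.6 and 30.2 CPM in control and 279 and 238 CPM in B/HS (3.31, SE 0.24), and *HSFB2A* (AT5G62020) had 5.51 and 6.88 CPM in control and 50.4 and 45.8 CPM in B/HS (2.94, SE 0.22).

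The HSFA1 genes, whose proteins start the response, were not uniform. *HSFA1D* and *HSFA1E* rose by 1.52 and 2.34 on the log2 scale (*HSFA1E* with 10 counts in W1), whereas *HSFA1A* and *HSFA1B* had log2 fold changes of −0.30 (adjusted *P* = 0.603) and 0.32 (adjusted *P* = 0.353, edgeR). *HSFA8* fell from 5.60 and 5.23 CPM to 2.37 and 3.64 CPM (−0.83, SE 0.30, adjusted *P* = 0.0388, edgeR). This last call was lost with DESeq2 and without W1, W2 or W3 (adjusted *P* = 0.0882 to 0.244).

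Of 10 other heat regulators and osmolyte genes, all tested, 9 rose, 7 of them at least 4-fold (median 3.15). *DREB2A* (AT5G05410), which drives heat and drought genes, had 6.07 and 9.17 CPM in control and 65.6 and 70.2 CPM in B/HS (3.14, SE 0.23, adjusted *P* = 2.21e-06, edgeR). *MBF1C* (AT3G24500), a transcriptional coactivator needed for thermotolerance, had 16.3 and 35.8 CPM in control and 393 and 332 CPM in B/HS (3.79, SE 0.35). *GolS1* (AT2G47180), which makes galactinol for the raffinose family of osmoprotectants, had 86.0 and 183 CPM in control and 2080 and 1485 CPM in B/HS (3.73, SE 0.38). The paralogue *DREB2C* (AT2G40340) was far less abundant, at 2.15 and 2.94 CPM in control and 25.8 and 20.9 CPM in B/HS (3.16, SE 0.28). The member that did not pass, *GOLS3*, had 0 counts in control and 1 and 2 in B/HS.

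The unfolded protein response raises chaperones of the ER. Of 13 tested members of this list 8 rose, 3 of them at least 4-fold, and 1 fell (median 0.94). The membrane-bound factor *BZIP28* (AT3G10800) had 9.52 and 10.3 CPM in control and 58.8 and 39.3 CPM in B/HS (2.302, SE 0.23, adjusted *P* = 7.12e-06, edgeR). Calnexin *CNX1* (AT5G61790), which folds glycoproteins, had 95.1 and 121 CPM in control and 581 and 415 CPM in B/HS (2.201, SE 0.25). The J-protein *ATERDJ3B* (AT3G62600) had 27.4 and 36.4 CPM in control and 139 and 125 CPM in B/HS (2.04, SE 0.21). The calreticulin *CRT3* (AT1G08450), known for folding the immune receptor EFR, fell from 57.6 and 63.9 to 30.6 and 29.8 CPM (−1.01, SE 0.18, adjusted *P* = 6.12e-04, edgeR), while *CRT1A* and *CRT1B* rose by 1.41 and 1.66.

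Genes of abscisic acid and dehydration rose in part. Of 22 tested, 12 rose, 4 of them at least 4-fold, and 2 fell (median 0.92). Without W3 or without W4, 8 were called higher. *COR47* (AT1G20440) and *ERD10* (AT1G20450), neighbouring genes for dehydrins, which protect membranes and proteins from water loss, behaved alike. *COR47* had 86.8 and 103 CPM in control and 797 and 738 CPM in B/HS (3.01, SE 0.31, adjusted *P* = 8.96e-06, edgeR), and *ERD10* had 76.0 and 83.3 CPM in control and 578 and 483 CPM in B/HS (2.74, SE 0.26). *KIN1* and *KIN2*, a pair of small cold-inducible genes side by side on chromosome 5, rose by 2.86 and 2.50. In contrast, the abscisic acid-responsive *RAB18* and *RD29B* had log2 fold changes of 0.01 (adjusted *P* = 0.974) and 0.37 (adjusted *P* = 0.774, edgeR). The hydroxylase gene *CYP707A2*, which breaks abscisic acid down, fell from 13.3 and 13.2 to 5.10 and 7.90 CPM (−1.01, adjusted *P* = 0.00446, edgeR) but was not called without W3 (adjusted *P* = 0.0658). The receptor *PYL6* also fell (−0.99, adjusted *P* = 0.0206, edgeR), a call lost with DESeq2, after thinning and without W1, W3 or W4 (adjusted *P* = 0.0613 to 0.239).

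Aquaporins, the water channels of the plasma membrane (PIP) and vacuole (TIP), rose in 10 of 17 members, 4 of them at least 4-fold, and fell in 2 (median 0.74). *RD28* (AT2G37180, *PIP2;3*) had 14.2 and 21.9 CPM in control and 222 and 188 CPM in B/HS (3.497, SE 0.26, adjusted *P* = 2.21e-06, edgeR). *PIP2A* (AT3G53420) had 53.6 and 69.3 CPM in control and 333 and 333 CPM in B/HS (2.44, SE 0.22), and *GAMMA-TIP* (AT2G36830) had 73.1 and 81.2 CPM in control and 380 and 307 CPM in B/HS (2.15, SE 0.23). *PIP2;8* went the other way, from 4.11 and 2.65 to 0.546 and 0.542 CPM (6 and 7 counts in B/HS, log2 fold change −2.59, SE 0.45, adjusted *P* = 6.04e-04, edgeR). The fall of *TIP2;2* (−0.79, adjusted *P* = 0.0335) was lost with DESeq2 and without each library in turn (adjusted *P* = 0.0514 to 0.211). Reads of the similar *PIP2;2* and *PIP2;3* genes, which are neighbours, could be split by the counting.

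Splicing regulators were mixed. Of 23 tested, 10 rose, 2 of them at least 4-fold, and 2 fell (median 0.40). *SR45a* (AT1G07350), an SR-like protein, had 26.6 and 39.9 CPM in control and 338 and 253 CPM in B/HS (3.15, SE 0.26, adjusted *P* = 2.92e-06, edgeR). *SR30* (AT1G09140), an SR protein, had 32.2 and 49.9 CPM in control and 264 and 249 CPM in B/HS (2.64, SE 0.26). *SCL33* and *SC35* rose by 1.76 and 1.47, while *SR45*, *SR34* and *RS40* had log2 fold changes of 0.35, 0.43 and −0.02 and did not pass. Both members that fell encode glycine-rich RNA-binding proteins. *GRP7* (AT2G21660) fell from 479 and 494 to 291 and 238 CPM (−0.88, adjusted *P* = 0.0173, edgeR), a call lost without W3 or W4 (adjusted *P* = 0.0765 and 0.183). *GRP8* (AT4G39260) fell from 166 and 172 to 92.8 and 87.8 CPM (−0.90, adjusted *P* = 0.00338), a call lost without W4 (adjusted *P* = 0.0642).

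Genes of autophagy rose in 7 of 10 members, 1 of them at least 4-fold (median 0.84), and in 4 without W3 or W4. *ATG8H* (AT3G06420), whose product coats autophagosomes, had 5.41 and 9.94 CPM in control and 46.6 and 40.9 CPM in B/HS (2.48, SE 0.29, adjusted *P* = 2.27e-05, edgeR). *NBR1* (AT4G24690), a receptor that delivers aggregated proteins to them, had 43.6 and 45.0 CPM in control and 88.6 and 89.9 CPM in B/HS (1.01, SE 0.18). Of 18 genes that scavenge reactive oxygen, 7 rose, 1 of them at least 4-fold, and 1 fell (median 0.37), with 4 to 6 risen when 1 library was left out. With all libraries 38.9 % of the scavenging genes rose and 5.56 % fell, against 19.9 and 19.7 % of all genes. The exception in size was *APX2* (AT3G09640), a cytosolic ascorbate peroxidase, at 38.4 and 61.9 CPM in control and 609 and 472 CPM in B/HS (3.43, SE 0.29, adjusted *P* = 3.16e-06, edgeR). The catalase *CAT3* fell from 341 and 502 to 274 and 225 CPM (−0.76, adjusted *P* = 0.0239, edgeR), which was lost without W2, W3 or W4 (adjusted *P* = 0.0861 to 0.232).

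Of 21 clock genes 9 rose, 2 of them at least 4-fold, and 4 fell (median 0.57), that is 42.9 and 19.0 % against 19.9 and 19.7 % of all genes, so the share that fell was near that of all genes. Without W3 or without W4, 2 fell. *PRR9* (AT2G46790), a morning repressor, had 3.08 and 3.53 CPM in control and 18.4 and 17.2 CPM in B/HS (2.41, SE 0.22, adjusted *P* = 4.63e-06, edgeR). The partner MYB genes *CCA1* and *LHY*, which peak at dawn, moved in opposite directions. *CCA1* (AT2G46830) had 32.1 and 33.9 CPM in control and 90.2 and 94.7 CPM in B/HS (1.49, SE 0.19, adjusted *P* = 4.59e-05, edgeR), and *LHY* (AT1G01060) had 20.8 and 15.9 CPM in control and 7.92 and 6.43 CPM in B/HS (−1.35, SE 0.24, adjusted *P* = 6.8e-04, edgeR). The groups did not overlap for either gene. *PCL1* (*LUX*) and *LNK1*, of the evening complex and the morning coactivators, rose by 1.66 and 2.06, *RVE8* fell by 0.95, and *TOC1* had a log2 fold change of 0.21 (adjusted *P* = 0.402, edgeR). The other falls, of *FKF1* and *CHE*, were lost with DESeq2 and in at least 3 of the 4 fits that left out a library. The labels give no time of day for the harvest.

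The largest falls belonged to genes of several kinds. *AT3G02640*, which encodes an uncharacterized protein, had 41.0 and 24.99 CPM in control and 2.37 and 1.86 CPM in B/HS (−3.96, SE 0.32, adjusted *P* = 2.88e-06, edgeR). *LURP1* (AT2G14560), a defence gene induced by an oomycete, had 88.3 and 116 CPM in control and 6.37 and 7.05 CPM in B/HS (−3.93, SE 0.23). *AT1G35710*, a leucine-rich repeat kinase, had 39.7 and 34.6 CPM in control and 1.91 and 3.72 CPM in B/HS (−3.69, SE 0.33). In each of these both control values lay above both B/HS values. *WRKY6* (AT1G62300), a transcription factor of senescence and defence, had 52.3 and 34.1 CPM in control and 3.10 and 4.18 CPM in B/HS (−3.55, SE 0.26). *IGMT4* (AT1G21130), an indole glucosinolate methyltransferase, had 61.7 and 70.7 CPM in control and 6.10 and 7.12 CPM in B/HS (−3.32, SE 0.20). The histone *HTA6* (AT5G59870) had 24.5 and 21.2 CPM in control and 2.55 and 1.94 CPM in B/HS (−3.35, SE 0.25). The remaining 6 of the 12 were *CB5-C*, AT5G22920, AT3G04210, AT1G01300, *3xHMG-box2* and AT1G56120, with log2 fold changes of −3.13 to −3.04. AT3G04210 is annotated as a TIR-NBS disease resistance protein and AT1G56120 as a leucine-rich repeat kinase. *3xHMG-box2* overlaps AT4G23810 (*WRKY53*), which also fell, and their reads cannot be told apart without strand.

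Salicylic acid is the hormone of immunity against biotrophic pathogens. The list of salicylic acid and other immune signalling genes had the lowest median of all lists, −1.77. Of 30 members, all tested, 23 fell, against 19.7 % of all genes, and 1 rose. Falls of at least 4-fold numbered 13, against 4.9 % of all genes. *PAD4* (AT3G52430), a central regulator, had 16.5 and 16.6 CPM in control and 2.64 and 3.25 CPM in B/HS (−2.48, SE 0.24, adjusted *P* = 6.3e-06, edgeR). *SARD1* (AT1G73805), which activates salicylic acid synthesis, had 12.2 and 10.8 CPM in control and 2.37 and 1.86 CPM in B/HS (−2.45, SE 0.26). The synthesis gene *ICS1* fell by 1.72 and its regulator *CBP60G* by 3.55 on the log2 scale. The receptor kinases *FLS2* and *EFR*, which sense bacterial flagellin and elongation factor Tu, fell by 3.20 and 1.14, while their co-receptor *BAK1* had a log2 fold change of −0.25 (adjusted *P* = 0.309, edgeR).

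Among transcription factors of this list, *WRKY33* (AT2G38470) had 50.7 and 48.1 CPM in control and 10.5 and 11.5 CPM in B/HS (−2.17, SE 0.19, adjusted *P* = 3.78e-06, edgeR). *WRKY40*, *WRKY46*, *WRKY53*, *WRKY54*, *WRKY60* and *WRKY70* fell by 2.84, 2.15, 2.91, 2.81, 2.75 and 2.01. Of the genes given only by a fall here, *CBP60G*, *FLS2*, *EFR*, *WRKY40*, *WRKY46*, *WRKY53*, *WRKY54* and *WRKY60* had fewer than 20 counts in at least 1 B/HS library. The only member called higher was *WRKY25*, a factor with a known role in heat tolerance, at 16.1 and 17.41 CPM in control and 24.8 and 27.02 CPM in B/HS (0.62, adjusted *P* = 0.0213, edgeR), which was lost without each library in turn (adjusted *P* = 0.0786 to 0.124). The marker *PR5* (AT1G75040) had 11.1 and 20.4 CPM in control and 4.92 and 2.94 CPM in B/HS (−2.03, SE 0.31). Without any 1 library, 20 to 22 members of the list fell.

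Of 21 tested genes of jasmonate synthesis and response 5 fell, 1 of them at least 4-fold, and none rose (median −0.49). The share that fell, 23.8 %, was near the 19.7 % of all genes, and 3 fell without W2 or W4. The synthesis gene *OPR3* (AT2G06050) had 10.4 and 15.3 CPM in control and 5.10 and 4.88 CPM in B/HS (−1.37, SE 0.23, adjusted *P* = 4.93e-04, edgeR). The repressors *JAZ1* and *JAZ10* had log2 fold changes of 0.19 and 0.32, the receptor gene *COI1* 0.32 and the marker *VSP2* −0.08, and none of them passed.

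In aliphatic glucosinolate synthesis, which makes sulfur-containing defence compounds from methionine, 15 of 21 tested members fell, 6 of them at least 4-fold, and none rose (median −1.35). *SUR1* (AT2G20610), a C-S lyase of the core pathway, had 35.4 and 34.5 CPM in control and 8.92 and 9.91 CPM in B/HS (−1.89, SE 0.25, adjusted *P* = 7.3e-05, edgeR). *CYP83A1* (AT4G13770) had 21.5 and 26.3 CPM in control and 8.28 and 7.51 CPM in B/HS (−1.60, SE 0.20). The entry enzyme *CYP79F1* (AT1G16410) had 11.2 and 14.6 CPM in control and 4.19 and 1.86 CPM in B/HS (−2.12, SE 0.32). The MYB regulators *MYB28* and *MYB29* fell by 1.199 and 2.81, the latter to 7 and 5 counts. Leaving out 1 library gave 11 to 14 falls.

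In flavonoid and anthocyanin synthesis 14 of 22 tested members fell, 5 of them at least 4-fold, and none rose (median −1.39). *PAL1* (AT2G37040), which commits phenylalanine to the pathway, had 42.6 and 51.9 CPM in control and 11.7 and 13.01 CPM in B/HS (−1.93, SE 0.20, adjusted *P* = 9.01e-06, edgeR), and *PAL2* (AT3G53260) had 51.8 and 44.9 CPM in control and 17.57 and 17.3 CPM in B/HS (−1.47, SE 0.18). *FLS1* (AT5G08640), flavonol synthase, had 16.2 and 17.5 CPM in control and 4.55 and 4.65 CPM in B/HS (−1.88, SE 0.27). The falls were not shared by every step. *C4H*, directly after *PAL*, and chalcone synthase (*CHS*, *TT4*) had log2 fold changes of −0.02 (adjusted *P* = 0.949) and −0.36 (adjusted *P* = 0.23, edgeR). *LDOX* and *TT19*, of the anthocyanin branch, fell by 2.34 and 2.37, both with fewer than 20 counts in at least 1 B/HS library.

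Cell division was covered by 2 lists. Of 15 tested DNA replication genes 9 fell, 3 of them at least 4-fold, and none rose (median −1.13), and without W2 or W3 5 fell. *RNR1* (AT2G21790), the large subunit of ribonucleotide reductase, had 13.3 and 11.2 CPM in control and 4.64 and 4.72 CPM in B/HS (−1.38, SE 0.23, adjusted *P* = 5.04e-04, edgeR). The helicase subunit *PRL* (AT4G02060, *MCM7*) had 7.09 and 6.76 CPM in control and 3.37 and 2.94 CPM in B/HS (−1.13, SE 0.25). Others did not pass, such as *PCNA1* and *PCNA2*, the replication clamp, with log2 fold changes of 0.30 and 0.0023. Of 20 tested genes of mitosis and cytokinesis 12 fell, 6 of them at least 4-fold, and none rose (median −1.30), and 9 fell without any 1 library. *AUR1* (AT4G32830), an Aurora kinase, had 7.84 and 5.29 CPM in control and 2.37 and 2.48 CPM in B/HS (−1.42, SE 0.30, adjusted *P* = 0.00215, edgeR). The cytokinesis syntaxin *KN* had a log2 fold change of 0.18 (adjusted *P* = 0.67, edgeR). In the promoter window, 6 of the 15 replication genes (40 %) held the E2F motif TTTCCCGC against 0.804 % of all tested genes, and 10 held site II.

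Histones, taken by annotation text, split by gene. The list took genes of the product Histone superfamily protein only where their symbol began with HTA, HTB or HTR. Of all 29 tested genes with that product, 17 fell, 10 of them at least 4-fold, and 6 rose. Of 18 tested members of the list 9 fell, 4 of them at least 4-fold, and 3 rose (median −0.85). The share that rose, 16.7 %, was near the 19.9 % of all genes. *HTA2* (AT4G27230) had 16.0 and 16.9 CPM in control and 2.46 and 2.94 CPM in B/HS (−2.60, SE 0.24, adjusted *P* = 5.05e-06, edgeR), and *HTB9* (AT3G45980) had 19.2 and 19.7 CPM in control and 3.46 and 6.12 CPM in B/HS (−2.01, SE 0.25). The more abundant *HTB4* (AT5G59910) went from 70.4 and 71.0 to 124 and 117 CPM (0.77, adjusted *P* = 0.00957, edgeR), and the H2A.Z gene *HTA9* (AT1G52740) from 39.9 and 47.4 to 69.1 and 62.5 CPM (0.59, adjusted *P* = 0.0298). The third rise was that of *HTA7* (0.86). All 3 calls were lost in some fits, *HTB4* without W2, W3 or W4 (adjusted *P* = 0.0501 to 0.0978), *HTA9* without each library in turn (0.0618 to 0.214) and *HTA7* without W3 (0.158).

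Of 28 tested genes of cell wall growth 11 fell, 6 of them at least 4-fold, and 2 rose (median −0.53). That is 39.3 and 7.14 % against 19.7 and 19.9 % of all genes. *EXPA1* (AT1G69530), an expansin that loosens walls, had 26.2 and 26.2 CPM in control and 3.73 and 3.33 CPM in B/HS (−2.89, SE 0.23, adjusted *P* = 2.81e-06, edgeR). *XTH4* (AT2G06850), which cuts and rejoins xyloglucan, had 54.0 and 44.3 CPM in control and 25.5 and 19.1 CPM in B/HS (−1.14, SE 0.20). Its family member *XTR6* (AT4G25810, *XTH23*) rose from 24.5 and 18.17 to 91.7 and 81.9 CPM (2.03, SE 0.20, adjusted *P* = 7.96e-06, edgeR). The other rise, of *XTH24* (0.70), was lost without each library in turn (adjusted *P* = 0.0538 to 0.105). The cellulose synthases *CESA1*, *CESA3* and *CESA6* had log2 fold changes of −0.26, 0.06 and 0.41 and did not pass.

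Of 18 tested genes of auxin and warmth signalling 7 fell, 1 of them at least 4-fold, and 1 rose (median −0.63), and 4 fell without W1 or W3. With all libraries 38.9 % fell and 5.56 % rose, against 19.7 and 19.9 % of all genes. The auxin exporter *PIN3* (AT1G70940) had 26.6 and 18.52 CPM in control and 9.10 and 8.67 CPM in B/HS (−1.34, SE 0.28, adjusted *P* = 0.00204, edgeR). *PIF7* (AT5G61270), a bHLH factor that responds to shade and warmth, rose from 6.72 and 8.35 to 18.6 and 16.7 CPM (1.22, SE 0.25, adjusted *P* = 0.00205, edgeR), and *PIF4* had a log2 fold change of 0.68 (adjusted *P* = 0.0507). Of 11 genes of dark and carbon starvation 9 fell and none rose (median −1.03), and without W1 or W3 5 fell. *SEN1* (AT4G35770), induced by darkness and senescence, had 68.1 and 32.0 CPM in control and 6.19 and 5.96 CPM in B/HS (−3.03, SE 0.31, adjusted *P* = 9e-06, edgeR). W1 was well above W2 in this gene, and both lay above the B/HS libraries.

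Of 19 tested antenna genes 18 did not pass and 1 fell (median 0.20), and of 19 Calvin cycle genes 18 did not pass and 1 fell (median −0.10), against 39.6 % of all genes that passed. *LHCB2.3* (AT3G27690), an antenna protein of photosystem II, had 33.5 and 44.0 CPM in control and 11.8 and 12.2 CPM in B/HS (−1.70, SE 0.25, adjusted *P* = 1.63e-04, edgeR). Its paralogues *LHCB2.1* and *LHCB2.2* had log2 fold changes of −0.14 and −0.11. *CP12-2* (AT3G62410), a small regulator of the Calvin cycle, had 79.1 and 82.5 CPM in control and 35.3 and 37.0 CPM in B/HS (−1.16, SE 0.19, adjusted *P* = 3.35e-04, edgeR). Rubisco activase *RCA*, a heat-sensitive protein, had a log2 fold change of 0.50 (adjusted *P* = 0.187, edgeR). Of 15 tested chlorophyll synthesis genes 3 rose (2 without any 1 library), of which *CRD1* (AT3G56940), a cyclase subunit, went from 129 and 128 to 279 and 290 CPM (1.15, SE 0.23). The share of chlorophyll synthesis genes that rose, 20 %, was near the 19.9 % of all genes. Copies of *LHCB1* and *RBCS* are near-identical and their single values are uncertain.

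Of 319 tested genes matched to ribosomal proteins by annotation text without a named organelle, 35 rose, 1 of them at least 4-fold, and 17 fell (median 0.12). That is 11.0 and 5.33 % against 19.9 and 19.7 % of all genes. The match was not limited to cytosolic ribosomal proteins. It took in the elongation factor gene *eEF-1Bb1* (called higher) and the plastid member *PSRP3/1* (called lower), among others. Fewer of these genes were called in either direction when any 1 library was left out, and so were fewer of all nuclear genes. The median of the list was then 0.15 without W1, 0.07 without W2, 0.10 without W3 and 0.13 without W4. Of 27 proteasome subunits 5 rose and none fell (median 0.28). The share of proteasome subunits that rose was near the 19.9 % of all genes, of which 19.7 % fell. *PBC2* (AT1G77440), of the catalytic core, had 11.9 and 15 CPM in control and 40.5 and 43.7 CPM in B/HS (1.64, SE 0.20, adjusted *P* = 3.48e-05, edgeR), while its paralogue *PBC1* had a log2 fold change of 0.16. Of 32 tRNA ligases 3 rose and 6 fell, and the falls numbered 1 without W3, 2 without W1, 3 without W2 and 4 without W4. Of 18 ribosome biogenesis genes 4 rose and 2 fell, but 2 rose without W2 or W3, and 0 fell without W1, W3 or W4 and 1 without W2. *RH36* (AT1G16280), an RNA helicase, had 3.64 and 4.35 CPM in control and 18.3 and 13.2 CPM in B/HS (1.96, SE 0.24). The share of tRNA ligases that fell (18.75 %) and of ribosome biogenesis genes that rose (22.2 %) were also near those of all genes.

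Among 13 genes often used as references, 4 rose and none fell (median 0.20). The share that rose was 30.8 %, against 19.9 % of all genes. *GAPC1* (AT3G04120) had 170 and 220 CPM in control and 578 and 540 CPM in B/HS (1.52, SE 0.24, adjusted *P* = 2.66e-04, edgeR), and *ACT7* (AT5G09810) had 77.9 and 79.7 CPM in control and 155 and 160 CPM in B/HS (1.00, SE 0.19, adjusted *P* = 0.00107). *ACT2*, *TUB4* and *UBQ10* had log2 fold changes of 0.14, 0.00022 and 0.34 and did not pass. Of 10 fatty acid desaturases 2 rose and 2 fell, 20 % each way and so near the shares of all genes. None of these 4 calls held in every fit that left out a library: 0 rose without W1, W2 or W3 and 1 without W4, and 0 fell without W3 or W4 and 1 without W1. Of 7 genes of nitrate and sulfate assimilation 2 rose and 1 fell, and 1 rose without W1 or W3. With all libraries 28.6 % of these 7 genes rose and 14.3 % fell, against 19.9 and 19.7 % of all genes. The nitrate transporter *NRT1.1* fell from 49.0 and 42.6 to 24.6 and 22.2 CPM (−0.97, SE 0.20, adjusted *P* = 0.00182, edgeR).

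The largest losses were also taken by level, per kb of exon. *PSBTN* (AT3G21055), a small subunit of photosystem II, went from 1136 and 738 to 494 and 476 CPM per kb (log2 fold change −0.95, adjusted *P* = 0.00956, edgeR), a call lost without W1, W3 or W4 (adjusted *P* = 0.0888 to 0.104). *ECS1* (AT1G31580), a cell wall protein, went from 395 and 495 to 205 and 188 CPM per kb (−1.18, SE 0.22, adjusted *P* = 9.34e-04). The glutathione transferase *GSTF9* (AT2G30860) went from 208 and 289 to 81.9 and 64.9 CPM per kb (−1.76, SE 0.25, adjusted *P* = 1.18e-04). AT1G54410, annotated as a dehydrin, went from 299 and 294 to 143 and 134 CPM per kb (−1.10, SE 0.21), opposite to the dehydrins *COR47* and *ERD10*. AT3G22235, a cysteine-rich transmembrane module protein, went from 173 and 205 to 27.03 and 59.1 CPM per kb (−2.13, SE 0.29). The uncharacterized AT5G42530 went from 715 and 724 to 342 and 355 CPM per kb (−1.05, SE 0.21). The control and B/HS libraries did not overlap for any of these 6 genes. They were picked as large falls among called genes, so this separation adds no support.

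**Figure D5:**
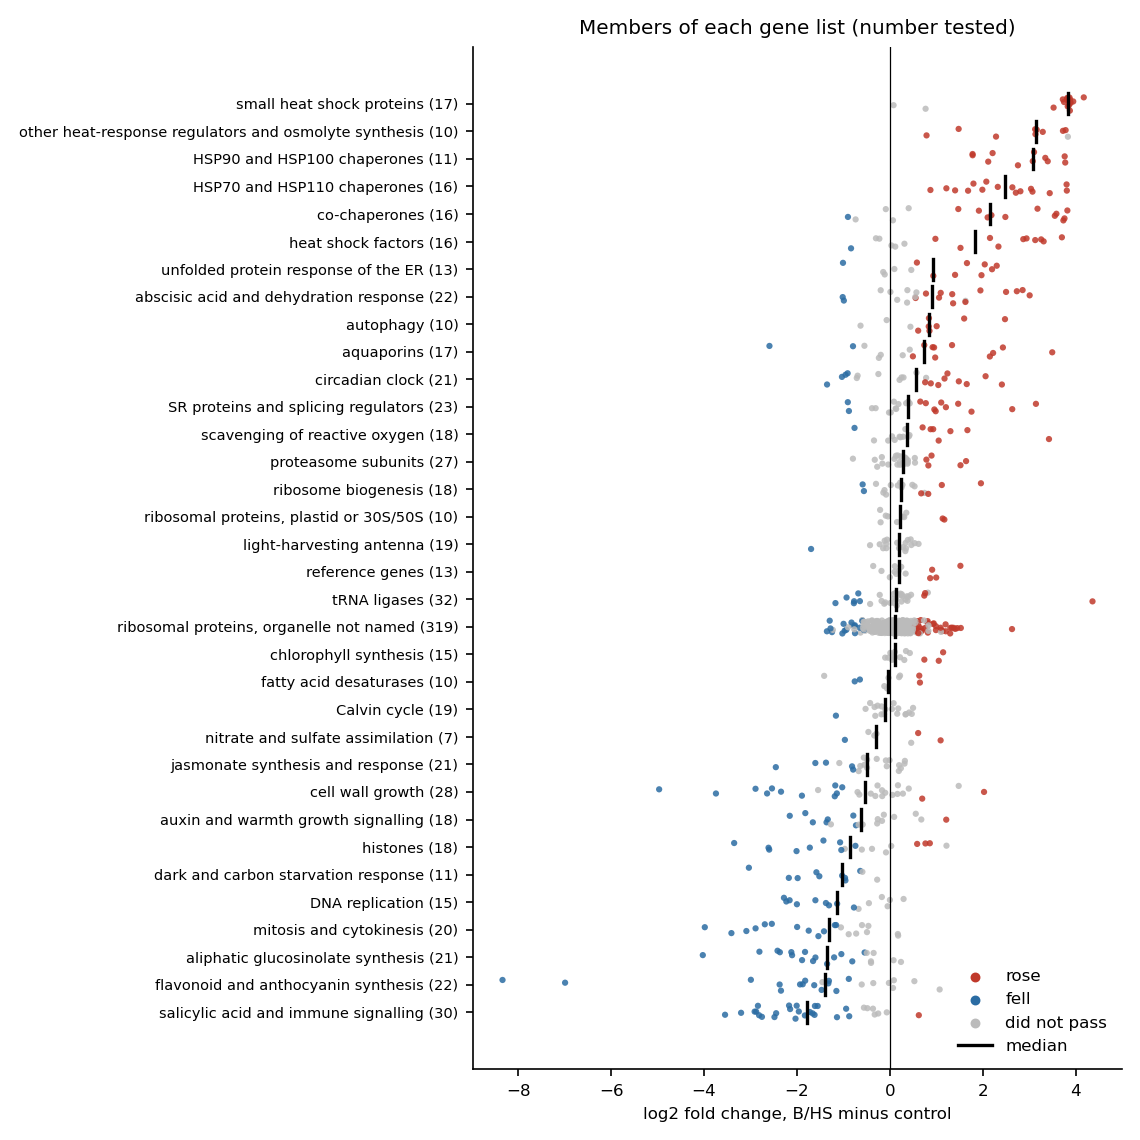
Each point is the log2 fold change (B/HS minus control) of 1 tested member of a gene list, red where it rose and blue where it fell at an adjusted *P*-value under 0.05, and black bars are medians, with the number tested in parentheses. Chaperone lists lie at the top (small HSPs, median 3.83) and salicylic acid and immune signalling at the bottom (median −1.77).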

How the data were processed

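RNA-seq counts per gene were deposited by the authors, who trimmed reads with the fastx toolkit and mapped them with TopHat 1.4.1 to TAIR10. How reads were assigned to genes (program, strand, reads matching several genes) is not given in the sources used here. Groups were taken from the labels. The raw counts of 6 *A. thaliana* libraries were fitted together with edgeR 4.0.16 in R 4.3.3 (filterByExpr, TMM scaling, quasi-likelihood test, Benjamini–Hochberg adjustment over all genes), and the 2 B/HS libraries were compared with the 2 control libraries. SEs were derived from the fold change and the F statistic (absolute log2 fold change over the root of F). Gene names and sequences came from RefSeq TAIR10.1. The script was tested on simulated data.

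The members and gene lists were chosen with earlier results of these data known. Genes were named by a rule: at least 20 counts in each of 4 libraries, then the 12 largest rises and falls, the 8 largest changes in level per kb, and up to 4 per list plus members against its direction. Other list members given beside them were chosen after their values were seen. Alternatives were DESeq2 1.42.0, RLE scaling, other filters (1 or 10 counts), nuclear genes only, 4 libraries only, thinning, glmTreat against 2-fold, and leaving out each library.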

Additional observations from a re-analysis of the deposited data

How the results depend on the processing

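No paired analysis was possible because the labels carry no replicate numbers, so nothing in them ties a control library to a B/HS library. With DESeq2, 2251 nuclear genes fell at an adjusted *P*-value under 0.05 against 3424 with edgeR. When at least 10 counts were required in each of the 4 libraries, 695 genes passed with a 4-fold change, 403 higher and 292 lower, against 647 higher and 852 lower, and this filter by construction removes genes that fell to few counts. Tested against a 2-fold change with glmTreat, 946 genes were higher and 916 lower. Leaving out 1 library at a time gave 4050 to 5061 genes at an adjusted *P*-value under 0.05 (2129 to 2566 higher and 1921 to 2541 lower), and 1233 to 1699 with a 4-fold change (535 to 746 higher and 698 to 1011 lower). The median of the nitrate and sulfate assimilation list went from −0.29 to 0.025 without control library W1 (−0.407 without W2), and the cause was not tested. Medians near 0 also changed sign for the Calvin cycle (−0.10 to 0.14 without W1 and 0.0056 without W4) and fatty acid desaturases (−0.043 to 0.10 without W1 and 0.064 without W4). In all, 51 median values over 18 lists moved by more than the spread between libraries. Of 174 named genes, 41 lost their call under at least 1 alternative and none changed sign. With 2 libraries a group and 22.3 to 39.0 % of counts on nuclear genes, changes of weakly expressed genes rest on few counts. Changes of abundant genes were not always more certain. The SE was 0.45 for the abundant AT1G07400, against a median of 0.23 for well counted genes.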

Other observations

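Genes sharing an annotated product were also counted, for the 102 products with at least 15 tested genes. These families were picked after their values were seen and carry no test. Among receptor genes, 12 of 20 leucine-rich repeat receptor-like kinases fell and none rose (median log2 fold change −0.74), and 20 of 42 TIR-NBS-LRR disease resistance genes fell. Of 39 peroxidase superfamily genes 17 fell (median −1.12), and of 37 pectin lyase-like genes 19 fell. In the other direction, 32 of 98 RNA-binding (RRM) genes rose and 5 fell (median 0.40), and 11 of 33 mitochondrial substrate carrier genes rose and 1 fell. Against these, 19.9 % of all nuclear genes tested rose and 19.7 % fell.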
